A study of Mus musculus with 5 samples.

Results

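The 10 genes described here encode heat shock proteins and chaperones of the mouse retina: the cytosolic HSP70 genes Hspa1a, Hspa1b and Hspa8, their partners Hsph1 and Dnajb1, the endoplasmic reticulum HSP70 gene Hspa5, the cytosolic HSP90 genes Hsp90aa1 and Hsp90ab1, the small heat shock protein gene Hspb1 and the mitochondrial chaperonin gene Hspd1. They were chosen by name, and each of the 10 matched 1 of the 43432 Ensembl gene IDs in the count table. Poly(A) RNA was sequenced from retinas of pups at postnatal day 7, in 3 libraries labelled as controls (a, b and c) and 2 labelled Mettl14 cko (a and b), called the cko libraries below. The labels give no strain, allele, Cre driver or sex for either group. They do not say whether a library is 1 animal, so p-values measure the spread between these libraries, part of which may be technical. Read from Xist and Y-linked genes, controls a and b and cko a were female, and control c and cko b male. Control c was thus the 1 male control. Sex separates cko a from cko b, and control c from controls a and b, as different animals. It does not separate controls a and b. The deposited table carries Six3 and a short form that may stand for Mettl3 with Mettl14 in its name, and the series title names both genes.

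Chaperones bind proteins that are not fully folded and keep them from clumping. HSP70 proteins bind short stretches of a client, J-domain proteins such as Dnajb1 bring the client and start the ATP cycle, and nucleotide exchange factors such as Hsph1 release it; HSP90 proteins then act late, on kinases, receptors and other nearly folded clients. Heat shock factor Hsf1 turns on the inducible members when unfolded protein builds up, by binding repeated GAA units in their promoters, while Hspa8, Hsp90ab1 and Hspd1 are also made without stress, and Hspa5 is turned on by the unfolded protein response of the endoplasmic reticulum. Photoreceptors make large amounts of membrane protein for their outer segments, and m6A on the inducible HSP70 transcript has been tied to its translation after heat shock in cultured mouse cells.

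The promoters of 5 members are printed because they show the near-identical windows of Hspa1a and Hspa1b and the members' windows that hold a heat shock element of 3 units or an ER stress element. RefSeq promoters on GRCm38.p6, from 250 bases before to 50 bases after a start, were at hand for 7 of the 10 members. Capitals mark heat shock elements, searched on both strands as 2 or 3 units that alternate between GAA and TTC with 2 free bases between them (the form of 3 units contains that of 2), and the ER stress element, CCAAT followed after 9 free bases by CCACG. The windows are chr17:34972107-34972406 (minus strand) for Hspa1a, chr17:34959189-34959488 (minus) for Hspa1b, chr5:149636287-149636586 (minus) for Hsph1, chr1:55087883-55088182 (minus, a start inside the gene) for Hspd1 and chr2:34771840-34772139 (plus) for Hspa5.
Hspa1a: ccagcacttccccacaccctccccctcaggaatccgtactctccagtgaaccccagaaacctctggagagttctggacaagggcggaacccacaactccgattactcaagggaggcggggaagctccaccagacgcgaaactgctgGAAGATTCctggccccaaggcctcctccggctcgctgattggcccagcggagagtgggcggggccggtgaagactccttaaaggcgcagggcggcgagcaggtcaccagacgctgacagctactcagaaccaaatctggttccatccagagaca
Hspa1b: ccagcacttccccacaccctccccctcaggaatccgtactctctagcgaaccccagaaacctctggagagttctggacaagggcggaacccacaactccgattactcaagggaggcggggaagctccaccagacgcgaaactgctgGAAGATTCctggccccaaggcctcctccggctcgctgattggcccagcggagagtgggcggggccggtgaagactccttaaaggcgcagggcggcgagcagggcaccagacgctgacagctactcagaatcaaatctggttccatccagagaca
Hsph1: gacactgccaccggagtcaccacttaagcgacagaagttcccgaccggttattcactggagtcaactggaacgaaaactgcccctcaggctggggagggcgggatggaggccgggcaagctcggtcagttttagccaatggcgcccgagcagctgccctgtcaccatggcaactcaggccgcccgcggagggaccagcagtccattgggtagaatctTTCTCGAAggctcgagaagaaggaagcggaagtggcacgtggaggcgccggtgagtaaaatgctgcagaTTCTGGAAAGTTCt
Hspd1: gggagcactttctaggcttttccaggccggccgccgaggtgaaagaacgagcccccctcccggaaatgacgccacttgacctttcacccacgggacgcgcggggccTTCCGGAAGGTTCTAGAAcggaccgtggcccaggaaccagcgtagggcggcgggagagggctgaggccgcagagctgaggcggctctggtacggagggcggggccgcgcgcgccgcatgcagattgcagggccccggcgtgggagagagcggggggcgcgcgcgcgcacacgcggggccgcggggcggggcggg
Hspa5: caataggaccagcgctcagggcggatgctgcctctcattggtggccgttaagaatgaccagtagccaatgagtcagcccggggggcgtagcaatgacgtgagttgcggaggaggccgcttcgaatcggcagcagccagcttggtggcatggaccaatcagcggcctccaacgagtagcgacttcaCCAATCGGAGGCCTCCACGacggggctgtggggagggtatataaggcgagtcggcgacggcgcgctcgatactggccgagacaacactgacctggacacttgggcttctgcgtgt

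The Hspa1a and Hspa1b windows were identical at 296 of 300 bases, and each held 1 element of 2 units that begins at position -104 from the start. The element of 3 units began at position 37 of the printed Hsph1 window, and 2 overlapping copies lay at -144 and -139 of the printed Hspd1 window. The window at the outer start of Hspd1, chr1:55088194-55088493, held neither form. Of 32851 promoter windows, 0.603% held an element of 3 units and 15.1% held one of 2 units. Hspb1 held 2 elements of 2 units, at -117 and -97, and none of 3 units, and the Dnajb1 windows held neither form. The ER stress element began at -65 of the Hspa5 promoter and was found in 0.119% of windows. A match describes these letters and is not a measured binding site.

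Libraries held 24315693 to 27100918 counts, so depth was similar in both groups. Mettl14 itself was not lower in the cko libraries, at 55.6 and 44.8 CPM against 41.5, 46.7 and 38.7 CPM in controls a to c. CPM stands for reads per library scaled to a common total, with sizes adjusted by TMM. Mettl3 was at 65.6 and 52.0 CPM in cko a and b, and at 72.4, 71.3 and 66.0 CPM in the controls. Both cko libraries thus lay below every control for Mettl3, cko a by a small margin. By edgeR, with an adjusted p of 0.615, this was a log2 difference of -0.25. The counts are per whole gene, so loss of only part of either transcript was not tested. Every direction below is therefore that of libraries labelled cko. The retinal identity of the samples was plain from rod genes, whose 7 listed members summed to between 9416 and 15029 CPM. Genes of tissues around the retina differed between libraries. The 13 lens fibre genes tested summed to 682, 500 and 1211 CPM in controls a to c against 55.3 and 19.7 CPM in cko a and b, and control c also had the highest sums of red blood cell, skeletal muscle, pigment epithelium and connective tissue genes. In whole tissue, fewer cells of a type and less RNA per cell cannot be told apart.

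The members spanned a wide range of levels. Per length (RPKM, CPM divided by the kilobases of annotated exon), Hspa8, the constitutive cytosolic HSP70, stood highest in the controls at 556 RPKM ± 42.1 (SD, n = 3), followed by Hsp90aa1 at 530 ± 129 and Hsp90ab1 at 224 ± 57.3. Only 18 genes had a higher mean CPM than Hspa8, and 23 a higher one than Hsp90aa1. Hspa5 was at 117 RPKM ± 12.1, Hspd1 at 72.0 ± 8.34, Dnajb1 at 16.3 ± 1.82, Hspb1 at 11.1 ± 3.95 and Hsph1 at 8.82 ± 1.85 (SD, n = 3 each). The inducible genes Hspa1b and Hspa1a were lowest, at 1.23 ± 0.227 and 1.09 ± 0.279 RPKM. Neighbours whose control values overlapped were Hspa8 and Hsp90aa1, Dnajb1 and Hspb1, Hspb1 and Hsph1, and Hspa1b and Hspa1a. In the cko libraries the order was the same except that Hsph1 lay above Hspb1, at 13.7 RPKM ± 1.20 and 8.41 ± 2.36 (SD, n = 2 each). The rank of Hsph1 rests on the length used. It has 7266 bases of annotated exon and 4764 in its longest transcript, where Hspb1 has 1031 and 930.

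**Figure D1:**
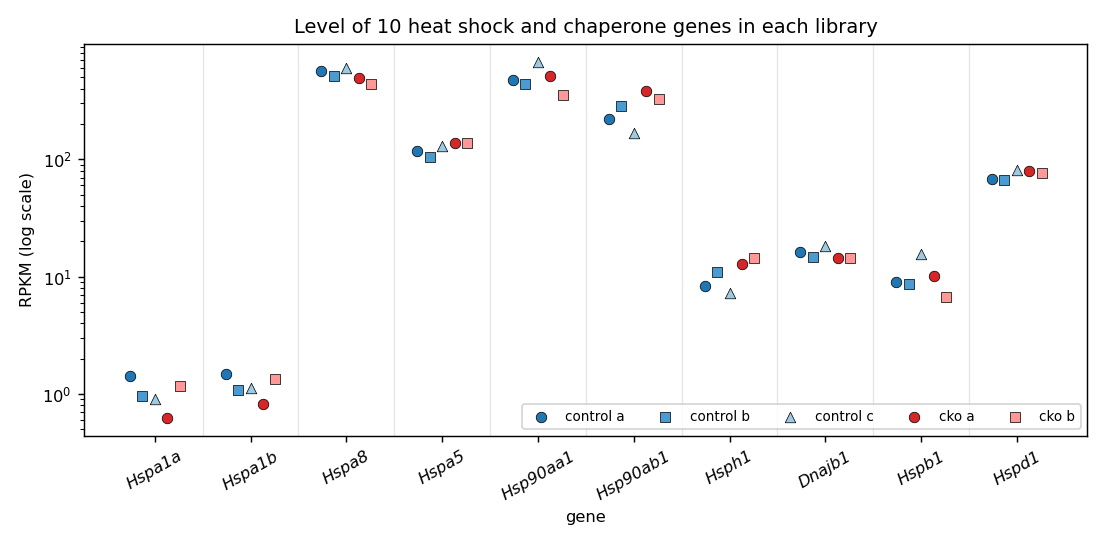
Level of each of the 10 genes in each library, in RPKM on a log scale; blue points are controls a, b and c, red points cko a and b. Hspa8 stands at 439 to 595 RPKM, and the inducible Hspa1a and Hspa1b near 1 RPKM in both groups.

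Reads of several members may be shared with close copies. Of the windows of 50 bases in the longest Hspa1a transcript, 60.4% also occur in a transcript of another gene, nearly all in Hspa1b, and the share was 62.3% for Hspa1b. It was 58.5% for Hsp90aa1, 51.6% for Hspb1, 51.4% for Hspa8 and 44.8% for Hspd1, whose copies are mostly processed pseudogenes. It was 4.49% for Hsp90ab1, 0.407% for Dnajb1 and 0 for Hspa5 and Hsph1. How the counting treated reads with several matches is not given in the sources used here, so levels of the first 6 genes may be understated or split. Of these 6, 5 had a negative log2 fold change, and of the other 4, 3 had a positive one; the part of shared reads in the comparison was not tested.

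No member passed the test between the groups. All 10 passed the low-count filter, and 0 of 10 had an edgeR quasi-likelihood adjusted p under 0.05, where 0.0998% of the 17039 genes tested did (0.00587% higher and 0.0939% lower in cko). DESeq2 called 0 of 10 (0.489% of genes), limma-voom 0 of 10 (0.0939%) and edgeR with no low-count filter 0 of 10 (0.981%). Hsph1 and Hsp90ab1 had an unadjusted edgeR p under 0.05, 2 of 10 members against 10.8% of genes. The log2 fold change of cko over control was positive for 4 members and negative for 6, with a median of -0.19 and a mean of 0.01, beside a median of -0.01 over all genes tested. The median was 0.10 without the cko a library and -0.05 without control a. Both cko values lay outside the range of the 3 controls for 5 members, of which Hspa5, Hsp90ab1 and Hsph1 were higher and Hspa8 and Dnajb1 lower; over all genes this held for 29.4%, with 15.8% higher and 13.7% lower.

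**Figure D2:**
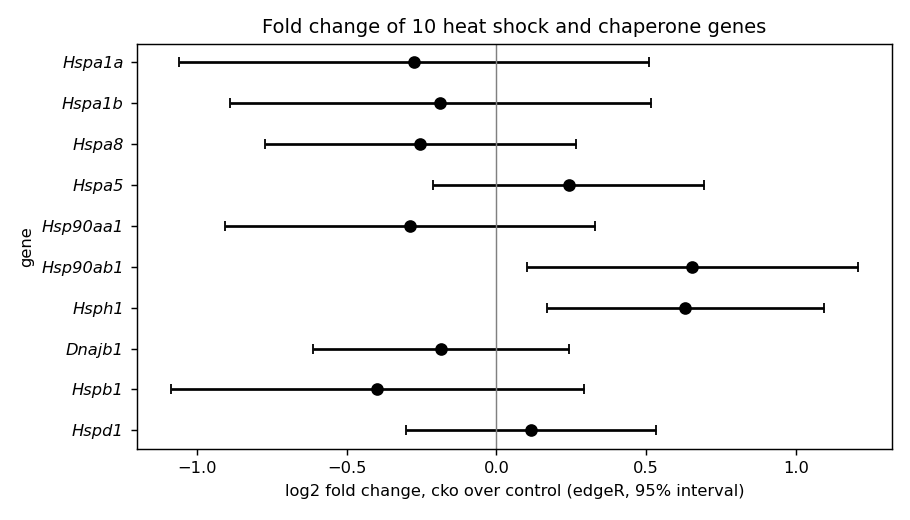
Log2 fold change of cko over control for each gene (edgeR, points) with its 95% interval (bars). The intervals of Hsp90ab1, 0.10 to 1.21, and Hsph1, 0.17 to 1.09, lie above 0 before adjustment over all genes, and the other 8 span 0.

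Hsp90ab1 was higher in both cko libraries than in each control, and Hsp90aa1 overlapped between the groups. Hsp90ab1, the constitutive cytosolic HSP90, was at 664, 849 and 506 CPM in controls a to c and at 1137 and 982 CPM in cko a and b. Both cko libraries were above every control, and control c was the lowest of the 5. The log2 fold change was 0.65 (SE 0.25), a 1.57-fold difference (95% interval 1.07 to 2.31), with an edgeR adjusted p = 0.439. Hsp90aa1, the stress-inducible form, was at 1872, 1716 and 2663 CPM in the controls and at 2013 and 1397 CPM in cko a and b. Here control c was the highest library and the groups overlapped, and the fold change was -0.29 on the log2 scale with SE 0.28 (95% interval -0.91 to 0.33; edgeR adjusted p = 0.695). It was -0.05 without cko b, -0.10 without control c and -0.58 without cko a. Hsp90ab1 lies on chromosome 17 from 45567775 to 45573271 and Hsp90aa1 on chromosome 12 from 110690605 to 110702728.

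The split of HSP90 reads between these genes follows from these values within each library, free of library scaling. It is not corrected for gene length, GC or the shared windows given above, and so is not the makeup of the transcripts. Hsp90ab1 made up 26.2%, 33.1% and 15.97% of the summed HSP90 CPM in controls a to c and 36.1% and 41.3% in cko a and b. The ratio of Hsp90ab1 to Hsp90aa1 averaged 0.347 ± 0.153 (SD, n = 3) over controls and 0.634 ± 0.0975 (SD, n = 2) over cko libraries. Its mean log2 differed by 0.97, a 1.96-fold difference, with no overlap of the groups, and by 0.59 to 1.28 with 1 library left out. The controls alone ranged from 0.190 to 0.495, and the exact two-sided permutation p was 0.2 (adjusted p = 0.333 over 5 ratios), where 3 against 2 libraries cannot go below 0.1. The summed CPM of the pair, 2536, 2565 and 3169 in the controls and 3151 and 2379 in cko a and b, overlapped between the groups. Without control c the log2 fold change of Hsp90ab1 was 0.46, and without control b it was 0.86 (edgeR adjusted p = 0.754 and 0.136).

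Hsph1, the HSP110 protein that drives nucleotide exchange on HSP70, had the same order of controls as Hsp90ab1. It was at 60.6, 78.9 and 52.7 CPM in controls a to c and at 93.1 and 105 CPM in cko a and b. The cko libraries were again above every control, with control c lowest and control b nearest to them. The log2 fold change was 0.63 (SE 0.21), a 1.55-fold difference (95% interval 1.12 to 2.13), with an edgeR adjusted p = 0.433. Without control c it was 0.49 and without control b 0.81 (edgeR adjusted p = 0.754 and 0.100). The gene lies on chromosome 5 from 149614287 to 149636376.

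**Figure D3:**
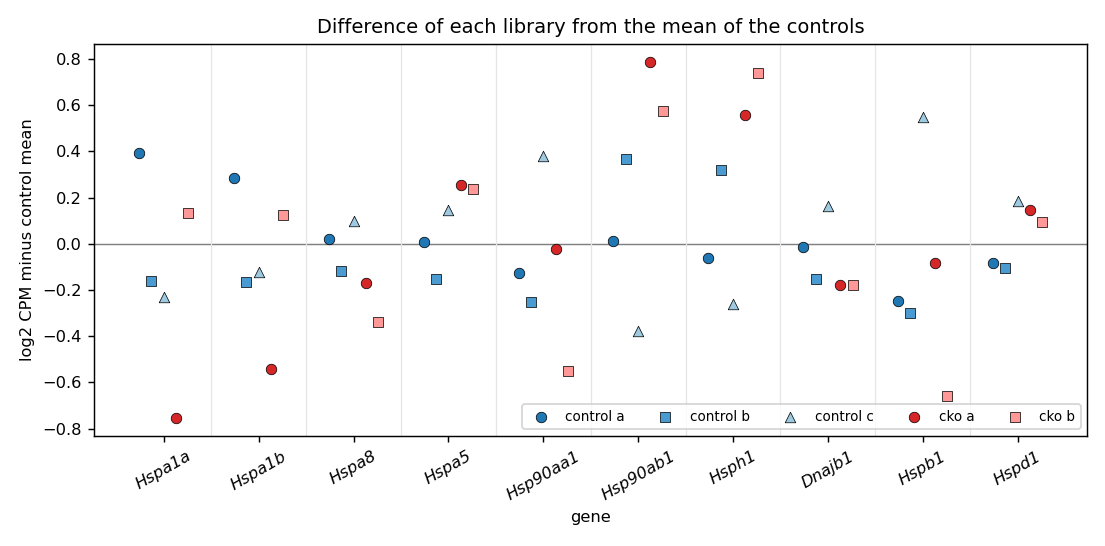
Log2 CPM of each gene in each library minus the mean of the 3 controls; blue points are controls and red points cko libraries. For Hsp90ab1 and Hsph1 the controls run upward from control c through a to b, with both cko libraries above; for Hsp90aa1 and Hspb1 control c is highest and cko b lowest.

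For Hsp90ab1 and Hsph1, the genes with the nearest pattern over the 5 libraries were listed. The nearest of many genes over 5 values are close by selection, so their like fold changes are no separate result. By the root mean square distance of log2 CPM centred over the 5 libraries, among the 11676 genes that averaged 5 CPM or more, the genes most like Hsp90ab1 were Actg1, a cytoplasmic actin (distance 0.02, log2 fold change 0.62), Nfx1 (0.03, 0.61) and Tpm3, a tropomyosin (0.04, 0.66). Those most like Hsph1 were Atrn (0.02, 0.61), Luzp1 (0.02, 0.68) and Esrrg, an orphan nuclear receptor (0.03, 0.60). None of these 6 genes passed edgeR, with adjusted p of 0.433 to 0.443. Those most like Hspb1, the member with the next largest difference, were Tac1 (0.06), Acot9 (0.06) and Zfp874a (0.07). Among the members, Hsp90ab1 and Hsph1 were 0.14 apart and Hsp90aa1 and Hspb1 0.10 apart, while Hsp90ab1 and Hspb1 were 0.74 apart.

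Differences between libraries also ran with transcript length. With genes split into 4 length classes of near equal size, the median log2 difference from the control mean in the longest class, which holds Hsph1, was -0.02, 0.13 and -0.13 in controls a to c and 0.09 and 0.25 in cko a and b. The shortest class, which holds Hspb1, had 0.02, -0.15 and 0.15 in the controls and -0.09 and -0.25 in the cko libraries. The class of 4 richest in GC, which holds Hspa1a, Hspa1b and Hspb1, had -0.35 in cko a and -0.07 in cko b. With a smooth trend on length and GC removed from each library, Hsp90ab1 had a log2 fold change of 0.64 and Hsph1 0.47, while Hspb1 went from -0.40 to 0.07. Of the 6 endothelial genes listed, none was called and all overlapped between the groups. Kdr, the most abundant, had 135.9, 259.9 and 66.9 CPM in controls a to c and 233 and 317 CPM in cko a and b. This is the same order of controls as for Hsp90ab1. Cldn5 was at 7.16, 4.33 and 5.26 CPM in the controls and 3.94 and 4.94 CPM in cko a and b. Averaged over the 5 libraries, Kdr was at 203 CPM and Pecam1 at 9.48, so Kdr does not stand for the list. The 6 Muller glia genes listed had the same order of controls in their median difference from the control mean. It was 0.08, 0.41 and -0.46 in controls a to c and 0.11 and 0.44 in cko a and b. Of these genes, 3 had a positive log2 fold change and 3 a negative one. The part of either cell type in the result was not tested.

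The inducible cytosolic HSP70 genes had the lowest levels of the 10 in every library. Hspa1a had 110, 79 and 61 counts in controls a to c and 47 and 99 in cko a and b. Hspa1b had 110, 85 and 71 counts in the controls and 59 and 106 in cko a and b. The copies had nearly equal counts within each library, with Hspa1a at 44.3% to 50% of their sum. As 1 gene they were at 8.38, 5.87 and 5.83 CPM in the controls and 4.17 and 7.23 CPM in cko a and b, with cko a the lowest library and cko b within the controls. The log2 fold change of the sum was -0.23 (SE 0.31), with a 95% interval from 0.535-fold to 1.36-fold and an edgeR adjusted p = 0.779. Without the cko a library the log2 value was 0.11 for each of the copies, so the sign rested on that library. Both genes lie on chromosome 17, from 34956436 to 34959238 for Hspa1b and from 34969190 to 34972156 for Hspa1a.

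Hspa8 was at 2422, 2199 and 2557 CPM in controls a to c and at 2125 and 1887 CPM in cko a and b. Both cko libraries were below every control, by a small margin from control b. Its log2 fold change was -0.25 (SE 0.24; 95% interval -0.77 to 0.26; edgeR adjusted p = 0.680). Dnajb1, the J-domain partner that is induced with HSP70, was at 51.7, 46.9 and 58.5 CPM in the controls and at 46.0 and 46.1 CPM in cko a and b, just under the lowest control. Its log2 fold change was -0.18 (SE 0.19; 95% interval -0.61 to 0.24; edgeR adjusted p = 0.717). The ratio of Dnajb1 to Hspa8 averaged 0.0218 ± 0.000888 (SD, n = 3) over controls and 0.0230 ± 0.00197 (SD, n = 2) over cko libraries, and the groups overlapped (exact two-sided permutation p = 0.5). The ratio of Hsph1 to Hspa8 was 0.0272 ± 0.00786 in the controls and 0.0498 ± 0.00853 in the cko libraries, a 1.87-fold difference in mean log2 with no overlap (exact two-sided permutation p = 0.2).

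Hspa5, known as BiP, is the HSP70 of the endoplasmic reticulum lumen. It was at 494, 442 and 544 CPM in controls a to c and at 587 and 581 CPM in cko a and b. The cko libraries lay just above control c, with a log2 fold change of 0.24 (SE 0.21; 95% interval -0.21 to 0.69; edgeR adjusted p = 0.651). Against Hspa8 the difference was larger than the spread in either group: the ratio of Hspa5 to Hspa8 was 0.204, 0.201 and 0.213 in the controls and 0.276 and 0.308 in cko a and b. The mean log2 ratio differed by 0.50, a 1.41-fold difference, where the SD was 0.04 in the controls and 0.11 in the cko libraries. The exact two-sided permutation p was 0.1, the smallest that 3 against 2 libraries can give, and 0.333 after adjustment over 5 ratios. Leaving out any 1 library gave a log2 difference of 0.42 to 0.58. The ratios were chosen after the counts had been seen. Like the HSP90 split, the ratios to Hspa8 are not corrected for gene length, GC or shared windows. Of windows of 50 bases, 51.4% were shared with another gene for Hspa8 and 0 for Hspa5.

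**Figure D4:**
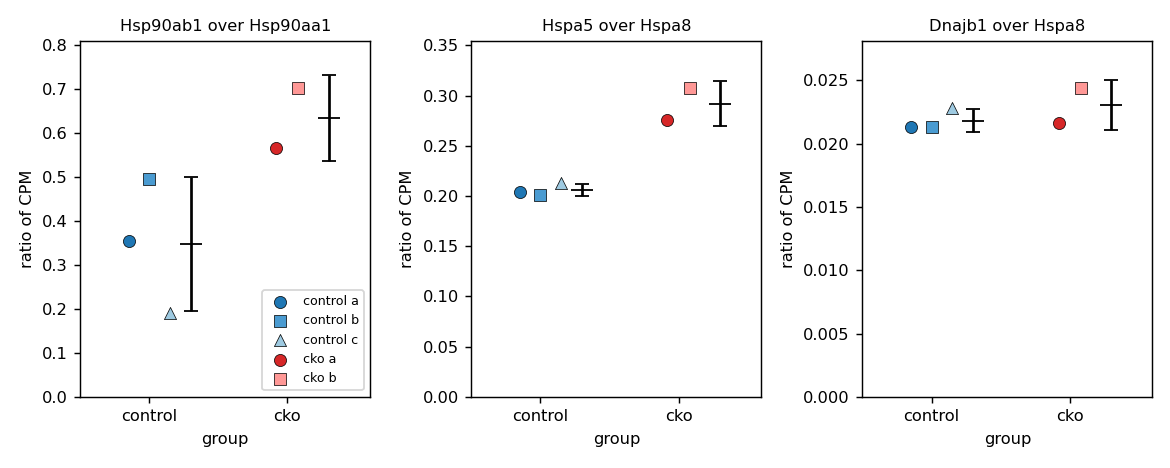
Ratio of CPM within each library for Hsp90ab1 over Hsp90aa1, Hspa5 over Hspa8 and Dnajb1 over Hspa8, each axis starting at 0; points are libraries and the bars beside them the group mean ± SD (n = 3 and n = 2). The controls span 0.190 to 0.495 in the first ratio and 0.201 to 0.213 in the second, and both cko libraries lie above them in each.

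Other genes of the endoplasmic reticulum showed no common direction. Of 26 genes of this list tested, 0 passed edgeR in either direction and 1, Sel1l, a subunit of the ER-associated degradation complex, had an unadjusted p under 0.05. The list had a median log2 fold change of -0.02. Both cko libraries lay outside the controls for 5 genes upward, Calr, Pdia3, Dnajb11, Atf6 and Sel1l, and for 3 downward, Pdia6, Creld2 and Xbp1, beside 15.8% and 13.7% of all genes tested. Hsp90b1, the HSP90 of the same compartment, was at 429, 418 and 560 CPM in controls a to c and at 588 and 473 CPM in cko a and b (log2 0.18, SE 0.22; edgeR adjusted p = 0.765). Calr, the most abundant member and a calcium-binding lectin chaperone, had a log2 value of 0.17, and Atf4, a transcription factor of the integrated stress response, -0.49 (edgeR adjusted p = 0.490), with -0.23 without cko b and -0.80 without cko a. Among targets of the unfolded protein response named after their values were seen, Sdf2l1, Dnajb9, Herpud1 and Ddit3 had log2 values of 0.11, -0.08, 0.07 and -0.26, and the cko and control values of each overlapped.

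Hspd1, which builds the mitochondrial chaperonin ring, was at 179, 176 and 216 CPM in controls a to c and at 209 and 202 CPM in cko a and b. The groups overlapped, with a log2 fold change of 0.11 (SE 0.19; 95% interval -0.30 to 0.53; edgeR adjusted p = 0.830). Its lid partner Hspe1 was at 130, 93.1 and 168 CPM in the controls and at 98.9 and 94.3 CPM in cko a and b (log2 -0.43, SE 0.24; edgeR adjusted p = 0.513), with -0.23 without control c. Of 11 mitochondrial chaperones and proteases, 0 passed and 0 had an unadjusted p under 0.05, with a median log2 of 0.05. Hspa9, the mitochondrial HSP70 and their most abundant gene, had a log2 value of 0.13, and the disaggregase Clpb 0.31.

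The cytosolic chaperonin and prefoldin genes, which fold actin and tubulin, all had negative values: 14 of 14, where 50.9% of all genes tested were negative. Their median log2 fold change was -0.32, with a range of -0.53 to -0.12. Both cko libraries lay below every control for 2 of the 14 and above for 0, beside 13.7% and 15.8% of all genes tested. All 14 were read in the same 5 libraries, so they are not independent counts. None of the 14 passed edgeR (1, Pfdn6, had an unadjusted p under 0.05, and neither DESeq2 nor limma-voom called any). Cct6a, the most abundant, was at 485, 403 and 651 CPM in controls a to c and at 441 and 344 CPM in cko a and b. Per library the list's median difference from the control mean was 0.01, -0.27 and 0.36 in the controls and -0.15 and -0.45 in the cko libraries, so control b lay between the cko libraries. Cct6a had a log2 value of -0.39. It was -0.20 without control c and -0.22 without cko b, but -0.53 without control b and -0.58 without cko a. With the length and GC trend removed, Cct6a went from -0.39 to -0.49 and Pfdn6 from -0.53 to -0.25.

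Hspb1, known as HSP25 in the mouse, is a small heat shock protein that binds actin and is abundant in muscle, lens and stressed glia. It was at 9.26, 8.91 and 16.1 CPM in controls a to c and at 10.4 and 6.95 CPM in cko a and b. Control c stood apart from the other 4 libraries and the groups overlapped, with a log2 fold change of -0.40 (SE 0.31; 95% interval -1.09 to 0.29; edgeR adjusted p = 0.625). Without control c it was -0.09, and control c was also the library richest in lens, muscle and connective tissue genes. The skeletal muscle list summed to 17.0, 23.3 and 54.3 CPM in the controls and 11.7 and 9.95 CPM in cko a and b, and the part of these tissues in the level of Hspb1 was not tested. Of the other genes listed by an Hspb symbol, 4 were tested, 0 passed and 0 had an unadjusted edgeR p under 0.05. The symbol alone does not make each of them a small heat shock protein. Hspb6, the most abundant, had a log2 value of -0.10, Hspb11 -0.17 and Hspb3 0.24.

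The alpha-crystallins belong to the same small heat shock family and were the clearest exception among related genes. Cryaa fell from 392, 350 and 726 CPM in controls a to c to 35.1 and 9.10 CPM in cko a and b, a difference of -4.47 on the log2 scale with SE 0.56 (edgeR adjusted p = 0.00939). The call was lost without the cko b library (log2 -3.80, adjusted p = 0.0584) and with sex as a covariate (log2 -4.50, adjusted p = 0.0705). Cryab was at 42.8, 43.5 and 66.3 CPM in the controls and 21.5 and 12.2 CPM in cko a and b. Its log2 value was -1.59 (SE 0.30, edgeR adjusted p = 0.147). DESeq2 called Cryab (adjusted p = 7.4e-05). So did edgeR with no low-count filter (5.1e-07), without control b (0.0435) and with the title letter as a block on all 5 libraries (0.019). It was not called by limma-voom (0.124) or by edgeR with sex as a covariate (0.396). Hsf4, the heat shock factor that acts in lens fibre development, was at 1.07, 1.40 and 1.90 CPM in the controls and 0.276 and 0.529 CPM in cko a and b (log2 -1.82, SE 0.48; edgeR adjusted p = 0.392), and was called with no low-count filter (0.0221). The lens fibre genes given above were lower in the same libraries, with 9 of 13 called, all downward. Over all genes tested, 0.0939% were called downward. By contrast Hsf1, the main heat shock factor, had a log2 value of 0.04 (SE 0.21) and Hsf2 0.10 (SE 0.20), and the groups overlapped for both. The list of 6 heat shock factors and regulators had a median of 0.07, with Hsbp1, its most abundant gene, at -0.15.

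Across 131 tested genes of the related lists, Cryaa was the 1 that edgeR called, with a median log2 fold change of -0.05. An unadjusted p under 0.05 was reached upward by 8 and downward by 11, beside 5.45% and 5.36% of all genes tested. Among 9 other HSP70 genes 0 passed, with Hspa12a at 0.64 (SE 0.26) and Hspa2 at 0.65 (SE 0.28) on the log2 scale and a list median of 0.12. Among 40 J-domain genes 0 passed and the median was -0.01. Dnajb4 was at 21.7, 23.9 and 26.9 CPM in controls a to c and at 38.8 and 37.7 CPM in cko a and b, with both cko libraries above every control (log2 0.66, SE 0.21; edgeR adjusted p = 0.433). Dnajc6, the auxilin that uncoats clathrin vesicles in neurons, had a log2 value of 0.57 (SE 0.19), and Dnaja1, the most abundant, -0.10.

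Of 17 HSP90 family genes and cochaperones, 0 passed and the median was -0.07. Fkbp8, an immunophilin anchored at mitochondria, was at 486, 358 and 524 CPM in controls a to c and at 303 and 261 CPM in cko a and b (log2 -0.70, SE 0.23; edgeR adjusted p = 0.433), and had -0.27 with the length and GC trend removed. Pih1d1, of the R2TP cochaperone complex, had a log2 value of -0.53 (SE 0.20), with -0.31 without cko b and -0.19 with the trend removed. Among 10 HSP70 nucleotide exchange and client factors 0 passed, and the members differed in sign. Bag6, which holds membrane proteins before their insertion, was at 264, 273 and 254 CPM in the controls and at 141 and 210 CPM in cko a and b (log2 -0.58, SE 0.22), Bag2 had a log2 value of 0.64 (SE 0.24) and St13, the most abundant, 0.18. The log2 value of Bag6 was -0.33 without cko a, -0.90 without cko b and -0.36 with the trend removed. The edgeR adjusted p of Bag6 and Bag2 were 0.433 and 0.438.

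**Figure D5:**
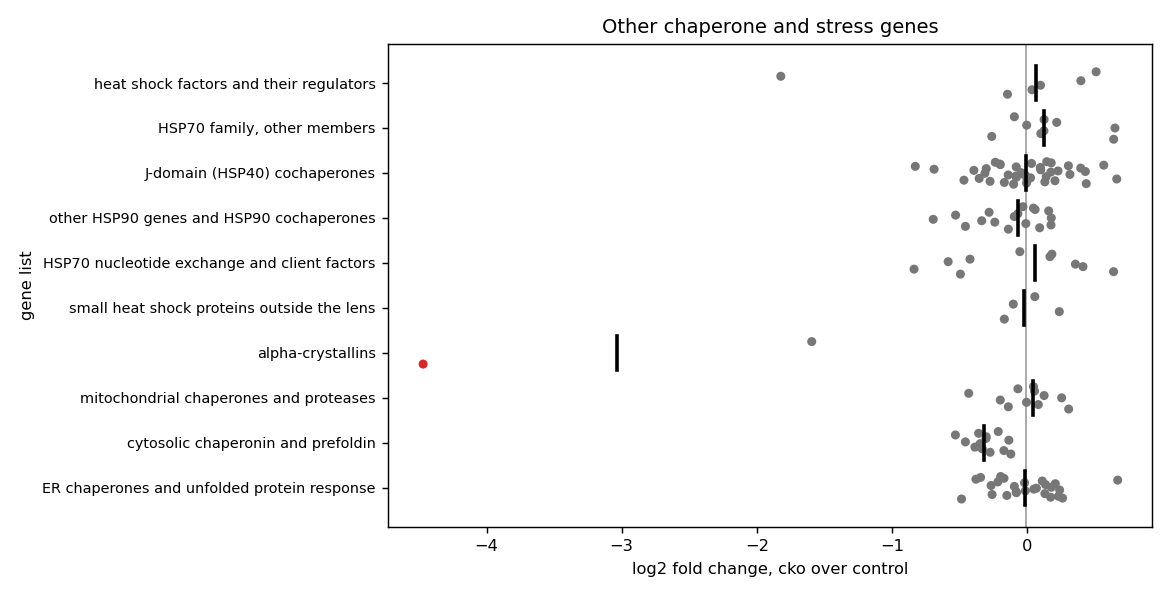
Log2 fold change of cko over control for each tested gene of 10 related lists (points; red where edgeR called the gene), with each list's median (black bar) and the median over all genes tested (grey line). Cryaa is the red point at -4.47, and the 14 chaperonin and prefoldin genes all lie below 0, with a median of -0.32.

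Immediate-early genes, which respond to handling and activity within minutes, were measured beside these lists. Their 11 members summed to 176, 172 and 162 CPM in controls a to c and to 99.4 and 115.9 CPM in cko a and b, and both cko libraries lay below every control for 7 of them, as for 13.7% of all genes tested. Of the 11, 0 passed edgeR, 3 had an unadjusted p under 0.05 (all lower; 5.36% of all genes), and DESeq2 called 2 (0.489% of all genes). Jun was at 76.9, 85.9 and 71.0 CPM in the controls and at 34.5 and 48.6 CPM in cko a and b (log2 -0.91, SE 0.21; edgeR adjusted p = 0.342; DESeq2 adjusted p = 0.0332). Fos had a log2 value of 0.05. Their part in the levels of the heat shock genes was not tested.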

How the data were processed

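The authors deposited raw read counts per Ensembl gene, whole numbers with no normalization. Per the submitters' processing notes, CASAVA, HISAT2 and featureCounts were run, with mm10; their versions, the annotation, strandedness and multi-match rules were not given in the sources used. Reads of genes that overlap, also in antisense, may therefore be mixed.

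Symbols matched 42462 of 43432 IDs; coordinates and exon lengths come from GENCODE M21 on GRCm38, the assembly of mm10, and promoters from RefSeq. Genes were kept by filterByExpr (minimum count 10, total 15), scaled by TMM and tested over all 17039 kept genes with edgeR 4.0.16 (quasi-likelihood F test, R 4.3.3, no covariate, 5 libraries), with Benjamini-Hochberg adjustment and a threshold of 0.05. SE was taken as log2 fold change over the square root of the F statistic. Log2 CPM used a prior count of 2. Alternatives used DESeq2 1.42.0 and limma 3.58.1 (voom), other scalings and filters, each library left out, the title letter as a block, summed Hspa1 copies, removal of genes of other tissues, and sex as a covariate, called from Xist and genes of the Y chromosome. Steps were tested on simulated data.

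The members and lists were chosen with earlier results of these data known. Named genes are the 10 members and, in each related list, called genes (else the 2 with the smallest p and a mean of at least 1 CPM) and the most abundant; Jun, Fos, Hsf1, Hsf2, Kdr, Cldn5 and the endoplasmic reticulum and unfolded protein response targets were named after their values were seen. The commonest gene of each check list was Crybb1, Hba-a1, Acta1, Rlbp1, Col1a1, Kdr, Pdgfra, Sag, Vim, Calb2, C1qb and Jun. The libraries differed beyond counting noise (chi-square per degree of freedom at least 26.7 for each pair), and each was kept as a sample.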

Additional observations from a re-analysis of the deposited data

How the results depend on the processing

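The count of members called was 0 in every setting tried, and Hspa8, Hspa5, Hsp90aa1, Hsp90ab1, Hsph1, Dnajb1 and Hspd1 kept their sign in all 17; Hsp90ab1 ranged from 0.46 to 0.86 and Hsph1 from 0.47 to 0.81 on the log2 scale, with lowest adjusted p of 0.136 and 0.100. Genes called over all genes, 17 at first, were 11 with library totals, 262 with no low-count filter, 80 with DESeq2, 39 with the replicate block on all 5 libraries, 0 with other-tissue genes removed, 9 with sex as a covariate, 11 at an adjusted p under 0.01, and 0 to 45 with 1 library left out (0 without cko b, 45 without control b). Related genes called, 1 at first, were 3 with no filter, 2 with DESeq2, 2 with the block, 0 with other-tissue genes removed (Cryaa is then not tested), 0 with the sex covariate and 0 to 2 with 1 library left out. The members' median was 0.021 with the length and GC trend removed, an alternative chosen after seeing the data, and -0.27 to 0.10 with 1 library left out. Signs turned with 1 library left out for Hspa1a (-0.81 to 0.11), Hspa1b (-0.57 to 0.11), Dnaja1 (-0.24 to 0.10), Hsbp1 (-0.34 to 0.027), Hspa9 (-0.025 to 0.26), Hspb11 (-0.40 to 0.14), Hspb3 (-0.47 to 0.72), Hspb6 (-0.49 to 0.20), the ratio of Dnajb1 to Hspa8 (-0.012 to 0.16) and that of Hspa1a to Hspa1b (-0.22 to 0.0096). With the trend removed Hspa1b was at 0.019, Hspb1 at 0.066 and Hspb6 at 0.055. With the block Dnaja1 was at 0.10 on libraries a and b and 0.12 on all 5, and Hspb11 at 0.16 and 0.18. The cause of these changes was not tested.

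Deviations from the group means correlated at -0.00676 for letter a and its counterpart and 0.149 for letter b. The deviations of cko a and cko b are mirror images of each other, so these values cannot decide whether the letters pair the libraries. Counts of 47 to 110 per library limit what can be said of Hspa1a and Hspa1b. With 1 cko library left, it is assumed to vary like the others.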
